A study of Mus musculus with 4 samples.

Results

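Granule neurons, the small glutamatergic neurons of the cerebellum, depend on a set of transcription factors that act at successive steps of their lineage, and 10 of these genes were followed here in the anterior and posterior lobes. They were Atoh1, Pax6, Neurod1, Neurod2, Meis1, Meis2, Barhl1, Etv1, Nfia and Nhlh1, and every probe whose target was given as ATOH1, PAX6, NEUROD1, NEUROD2, MEIS1, MEIS2, BARHL1, ETV1, NFIA or NHLH1 was taken. This gave 17 of the 45281 probes and 10 of the 30854 gene symbols of the table. The samples were wild-type Swiss mice at postnatal day 7 (PN7), untreated, whose cerebellum was cut into anterior and posterior lobes. There were 2 RNA samples per lobe, each on an Illumina MouseWG-6 v2.0 bead array of its own. The labels do not say whether the samples came from separate animals or from pools, so p-values measure the spread between these arrays only.

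Granule progenitors arise from the rhombic lip and spread over the cerebellar surface as the external granule layer (EGL). Its outer part divides, its inner part holds cells that have left the cycle, and these cells then move inward, past the Purkinje cells, into the internal granule layer (IGL). Atoh1, a basic helix-loop-helix (bHLH) factor, makes and maintains the progenitors. Barhl1 is a homeobox gene downstream of Atoh1, and Pax6 is a paired-box factor present along the whole lineage. Neurod1, Neurod2 and Nhlh1 are bHLH factors of cells that differentiate, Meis1 and Meis2 are homeodomain proteins that bind DNA together with Pbx partners, and Nfia and Etv1 act in migration and in the maturation of dendrites and synapses. The comparison bears on the granule lineage background of the study, in which Pax6 was placed upstream of the posterior factor Tlx3.

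Of the 17 probes, 13 probes of 8 genes were brighter than the negative controls of the chip on all 4 arrays, at a detection p-value under 0.05, and these were tested. The probes of Atoh1 and Nhlh1, the second probe of Pax6 and the second probe of Nfia were not detected on any array. Etv1 was the only one of the 8 tested genes past the criterion of the study, which asks for an unadjusted p under 0.05 and a difference above 1.2-fold. All 3 of its probes were lower in the posterior lobes, by log2 differences of -0.64, -0.46 and -0.50. Over all 21726 tested probes 8.29% passed this criterion, 5.00% lower and 3.30% higher in the posterior lobes. Counted with 1 probe per gene, the brightest tested one, 7.92% of 15615 genes passed this criterion. Of all probes past it 39.7% were higher, and 53.5% when the arrays were shifted to a common 75th percentile instead. By limma with Benjamini-Hochberg adjustment over all tested probes, 0 of the 13 probes passed an adjusted p of 0.05, against 0.106% of all tested probes. The 3 with an unadjusted p under 0.05 were the Etv1 probes, so 1 gene of the 8. The next lowest p of the members, 0.0678 for Barhl1 by limma, stood at place 2771 of 21726, so fewer probes than that lay under 0.05. With the methods' t-test 0 of the 13 and 0 of all tested probes passed after adjustment, and 1 of the 13 and 1763 of the 21726 had an unadjusted p under 0.05. The count of 3 past the criterion fell to 1 with the methods' t-test, by which 3.41% of all tested probes passed it. It was 7 without anterior replicate 1, where 22.1% of all tested probes passed, and 5 without anterior replicate 2, where 9.17% did. It was 2 without either posterior array, against 3.58% of all tested probes without posterior replicate 1 and 3.80% without posterior replicate 2.

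The median log2 difference, posterior minus anterior, was -0.058 over the 13 probes and 0.0023 over all tested probes, and the median size of the difference without its sign was 0.12 and 0.10. The arrays of the lobes did not overlap for 6 of the 13 probes, against 42.6% of all tested probes. For 5 of these the posterior arrays were below, against 21.5% of all tested probes, and for 1 they were above. With 2 arrays against 2, an exact two-sided permutation test cannot go below p = 0.33, so the p-values rest on the spread that limma pools over probes. The median intensity over all probes lay between 110.2 and 129.6 per array. Each tested probe was read from 27 to 64 beads per array, and the standard error over beads was between 2.09% and 4.78% of the signal. The gap between the anterior arrays was wider than the difference between the lobes for 9 of the 13 probes, and for 59.8% of all tested probes. All tissue here was bulk RNA, so fewer cells of a type and less RNA per cell cannot be told apart.

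**Figure D1:**
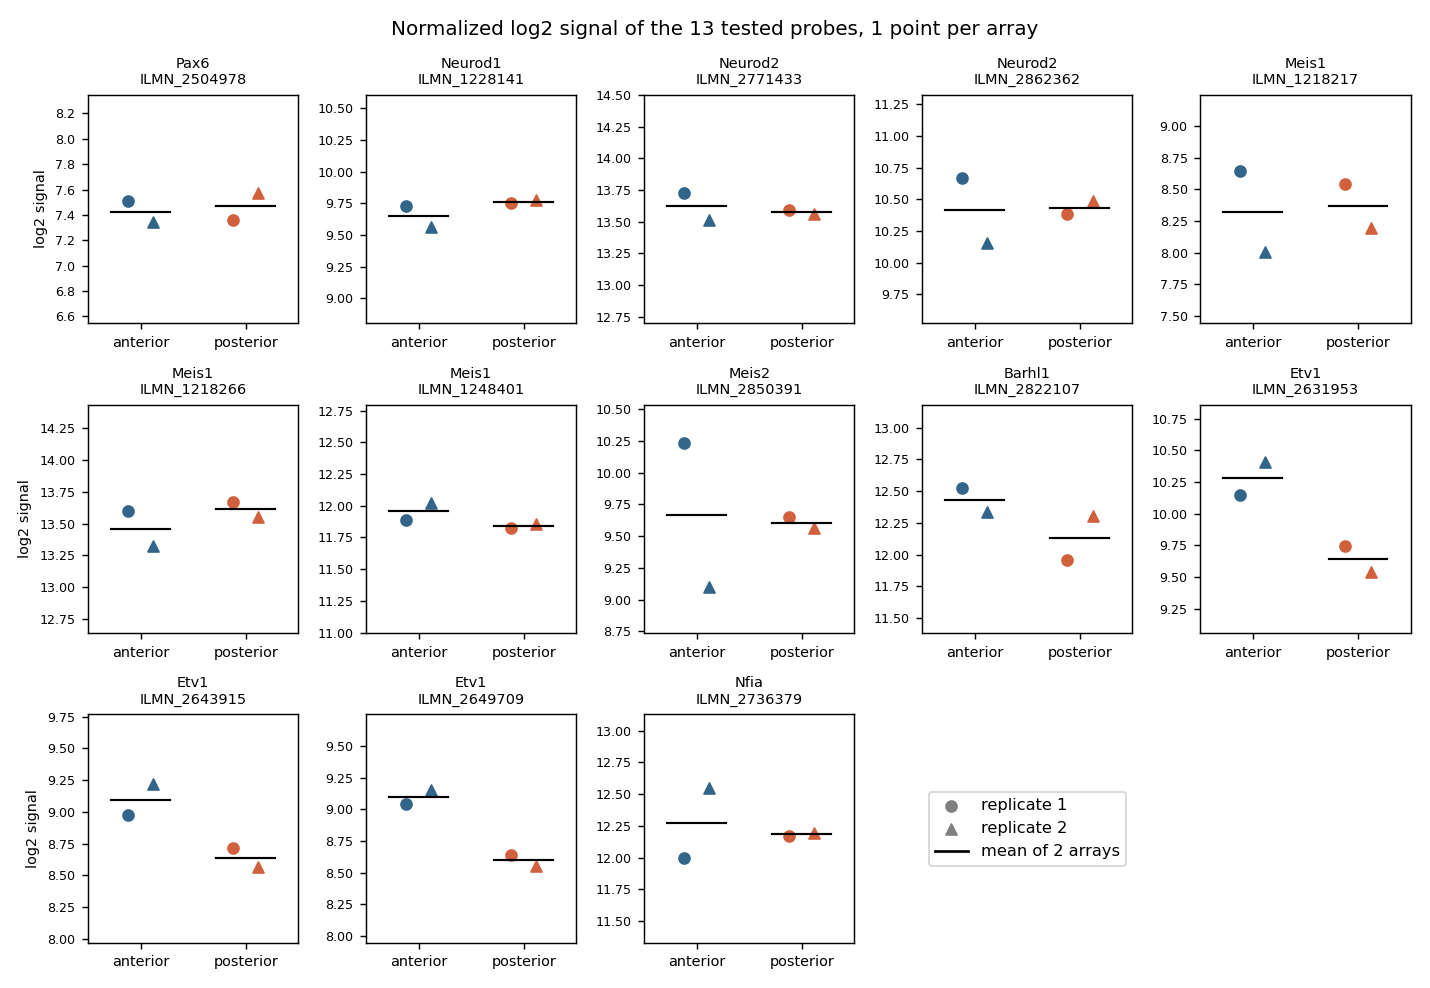
Normalized log2 signal (y axis) of each of the 13 tested probes in the anterior and posterior lobes (x axis), 1 point per array and a line at the mean of the 2 arrays of a lobe. Every panel spans the same number of log2 units, and the anterior and posterior points are apart for the 3 probes of Etv1, while those of Meis2 lie widest apart within the anterior lobes.

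Atoh1, the factor that defines granule progenitors, gave no signal above background. Its probe (ILMN_2767705) had an intensity of 65.2 and 64.7 on the anterior arrays and of 75.2 and 69.3 on the posterior arrays, and between 0.417 and 0.838 of the negative controls were at least as bright. No level of Atoh1 can be given in either lobe. Other genes of the progenitors were well measured, since 11 of 13 in a list of progenitor genes were tested. Among them were Mki67, a marker of dividing cells, and the cyclin gene Ccnd1, while Gli1 and Mycn were detected on too few arrays to be tested.

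Barhl1 had the largest difference after Etv1. Its probe (ILMN_2822107) had an intensity of 6378.3 and 4783.3 on the anterior arrays and of 3877.4 and 5181.6 on the posterior arrays. After normalization the anterior arrays had a mean log2 signal of 12.43 ± 0.14 (SD, n = 2 arrays), and the posterior arrays one of 12.13 ± 0.25. Both posterior arrays lay below both anterior arrays on this scale, although posterior replicate 2 was brighter than anterior replicate 2 before normalization. The log2 difference was -0.30 (95% interval -0.62 to 0.030, adjusted p = 0.53 by limma), and the unadjusted p of 0.0678 missed the criterion. The gap between the posterior arrays, -0.35, was wider than the difference between the lobes. With all 4 arrays Barhl1 passed the criterion, at the same difference, without the filter on dim probes (unadjusted p of 0.0481 by limma) and with the replicate number as a block (unadjusted p of 0.0268). It also passed without anterior replicate 2 and without posterior replicate 2, at -0.40 and -0.47, and it had -0.20 and -0.12 without the other arrays in turn.

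Pax6, the factor at the centre of the study, did not differ beyond its spread. The detected probe (ILMN_2504978) had an intensity of 197.9 and 147.3 on the anterior arrays and of 163.9 and 192.5 on the posterior arrays, so the groups overlapped. On the log2 scale the anterior mean was 7.43 ± 0.12 (SD, n = 2 arrays) and the posterior mean 7.47 ± 0.15, a difference of 0.040 with a 95% interval from -0.27 to 0.35 (adjusted p = 0.94 by limma). On the linear scale the interval runs from 0.830 to 1.27 of the anterior signal, so a difference of 1.2-fold in either direction was within it. This probe was dim, since the lowest detected log2 signal lay between 7.01 and 7.06 per array, and the interval is not corrected for background. With background correction by neqc the log2 difference was 0.063, and its standard error rose from 0.13 to 0.20. The second probe (ILMN_2612187) was at background, with an intensity between 112.8 and 124.0. On the same arrays Tlx3 (ILMN_1217773) was detected in the posterior lobes only, at intensities of 449.3 and 334.6, while the anterior arrays gave 73.1 and 57.9.

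Neurod1, which granule neurons need to survive and differentiate, did not differ beyond its spread. Its intensity (ILMN_1228141) was 917.5 and 705.9 on the anterior arrays and 836.5 and 887.1 on the posterior arrays, so anterior replicate 1 was the brightest before normalization. The normalized log2 signal was 9.65 ± 0.12 (SD, n = 2 arrays) against 9.76 ± 0.021, a difference of 0.12 with a 95% interval from -0.16 to 0.40 (adjusted p = 0.75 by limma). After normalization it was the 1 tested probe of the 13 with both posterior arrays above both anterior arrays, against 21.1% of all tested probes.

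Neurod2, a close relative of Neurod1 that acts in the survival of maturing granule neurons, was read by a pair of probes that overlapped between the lobes. The brighter one (ILMN_2771433) had an intensity of 14592.2 and 10789.5 on the anterior arrays and of 12138.8 and 12329.6 on the posterior arrays. Its log2 difference was -0.044, with a 95% interval from -0.25 to 0.16 (adjusted p = 0.89 by limma). This was an interval within 1.2-fold on both sides. The other probe (ILMN_2862362) had a log2 difference of 0.021, with a wider interval from -0.41 to 0.45. Nhlh1, a bHLH factor of newly post-mitotic neurons, was not detected with its probe (ILMN_2656711), whose intensity lay between 77.5 and 88.7.

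Meis1, which promotes the step from progenitor to differentiating granule neuron, had 3 tested probes that did not point one way. ILMN_1218266 had an intensity of 13333.8 and 9353.3 on the anterior and of 12895.5 and 12280.4 on the posterior arrays, and a log2 difference of 0.15 (95% interval -0.10 to 0.41, adjusted p = 0.65 by limma). ILMN_1248401 was lower on both posterior arrays, at intensities of 4053.6 and 3871.7 against 3524.7 and 3790.9, with a log2 difference of -0.12 (95% interval -0.32 to 0.081, adjusted p = 0.66). ILMN_1218217 was the dimmest, with a log2 difference of 0.046 and the widest interval of the 3, from -0.54 to 0.63. None passed the criterion, and each interval included 0. Without anterior replicate 1, ILMN_1218266 had a log2 difference of 0.29, with 1 anterior array left.

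Meis2, the relative of Meis1, showed the widest spread of the 10 genes. Its probe (ILMN_2850391) had an intensity of 1297.8 on the array of anterior replicate 1 and of 507.9 on that of anterior replicate 2, with the posterior arrays between them at 778.5 and 764.9. The standard error over beads was 4.01% and 3.07% on the anterior arrays, so the gap between these arrays, 1.13 on the log2 scale, was far wider than the error over beads. The log2 difference between the lobes was -0.058 with a 95% interval from -0.91 to 0.79 (adjusted p = 0.97 by limma). It was 0.51 without anterior replicate 1 and -0.62 without anterior replicate 2, so its direction rested on which anterior array was kept.

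Nfia, a nuclear factor I protein, had 1 detected probe (ILMN_2736379). Its intensity was 4414.7 and 5508.0 on the anterior arrays and 4498.4 and 4767.0 on the posterior arrays. The posterior values lay between the anterior ones, and the log2 difference was -0.088 with a 95% interval from -0.51 to 0.33 (adjusted p = 0.89 by limma). It was -0.36 without anterior replicate 1 and 0.19 without anterior replicate 2. The second probe (ILMN_1232915) was not above background, with an intensity between 61.5 and 70.5.

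Etv1, an ETS-family factor that turns on genes of maturing granule neurons in response to activity, was lower in the posterior lobes on every probe and array. ILMN_2631953 had an intensity of 1226.4 and 1274.5 on the anterior arrays and of 833.5 and 749.1 on the posterior arrays. ILMN_2643915 had 550.6 and 554.4 on the anterior arrays and 412.7 and 379.7 on the posterior arrays. ILMN_2649709 had 577.2 and 529.9 on the anterior arrays and 391.4 and 375.7 on the posterior arrays. The lobes did not overlap on any of these probes, before or after normalization, and the standard error over beads was at most 4.52%. The 3 probes read the same RNA samples and are not replicates of the lobes.

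For ILMN_2631953 the normalized log2 mean was 10.28 ± 0.18 (SD, n = 2 arrays) anterior and 9.64 ± 0.15 posterior. Its log2 difference of -0.64 (standard error 0.14, 95% interval -0.97 to -0.30) is a 1.55-fold higher signal in the anterior lobes, with an unadjusted p of 0.00355 and an adjusted p of 0.245 by limma. It stood at place 315 of 21726 by p-value and at place 186 among the most negative differences. ILMN_2643915 was 1.38-fold higher in the anterior lobes (log2 difference -0.46, 95% interval -0.80 to -0.12, adjusted p = 0.39), and ILMN_2649709 was 1.42-fold higher (log2 difference -0.50, 95% interval -0.80 to -0.21, adjusted p = 0.29). A figure legend of the study gives 1.5-fold where its methods give 1.2-fold, and only ILMN_2631953 exceeded 1.5-fold. At 1.2-fold, the threshold used here throughout, all 3 probes met the criterion of the study by limma and missed the adjusted p. The methods' t-test kept ILMN_2649709 alone (unadjusted p of 0.0196), and without posterior replicate 2 ILMN_2631953 alone passed by limma (unadjusted p of 0.0392). ILMN_2643915 also missed the criterion without posterior replicate 1 (unadjusted p of 0.055).

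**Figure D2:**
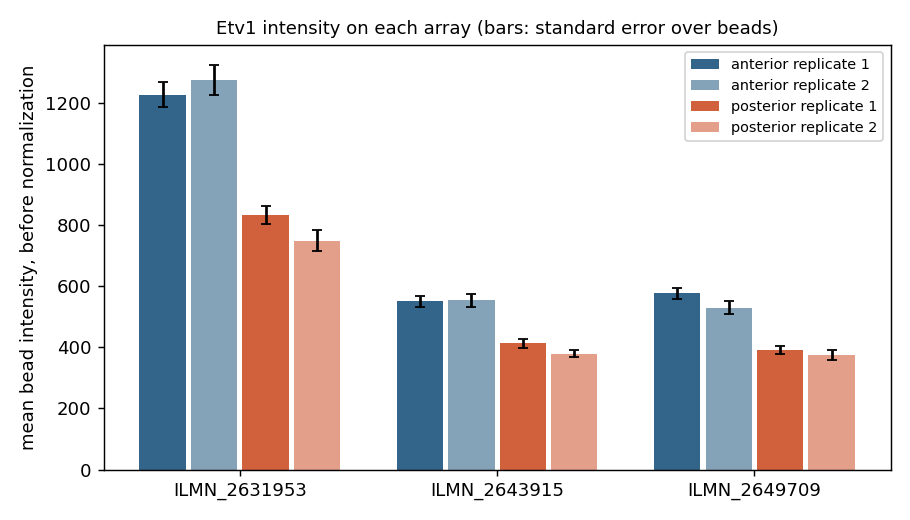
Mean bead intensity before normalization (y axis, linear) of the 3 Etv1 probes (x axis) on each array, with error bars for the standard error over beads. The anterior bars of ILMN_2631953 stand at 1226.4 and 1274.5 and the posterior bars at 833.5 and 749.1, and the other probes show the same order of lobes.

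Etv1 was the only tested member past the unadjusted criterion, so the 250 bases before each of its annotated starts are shown. They were taken from RefSeq promoters of GRCm38.p6, with E-boxes in capitals. An E-box has the letters CANNTG, which bHLH factors such as Atoh1, Neurod1 and Nhlh1 bind and which read the same on both strands. The windows lie on the plus strand at chr12:38779832-38780081 and, 3629 bases further along the gene, at chr12:38783461-38783710.
Etv1, first start: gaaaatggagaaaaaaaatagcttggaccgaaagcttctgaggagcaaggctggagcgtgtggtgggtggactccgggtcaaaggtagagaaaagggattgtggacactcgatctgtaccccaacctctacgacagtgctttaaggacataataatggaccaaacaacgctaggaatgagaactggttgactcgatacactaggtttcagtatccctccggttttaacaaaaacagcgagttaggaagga
Etv1, second start: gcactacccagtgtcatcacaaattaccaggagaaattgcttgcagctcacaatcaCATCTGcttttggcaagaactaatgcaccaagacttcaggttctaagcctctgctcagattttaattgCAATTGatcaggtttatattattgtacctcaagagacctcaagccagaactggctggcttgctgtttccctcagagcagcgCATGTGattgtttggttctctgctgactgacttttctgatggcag
The first window held no E-box and the second held 3, at 194, 126 and 45 bases before the start. Barhl1, the gene with the next largest difference, is shown beside it for its E-box CAGCTG. Its windows lie on the minus strand at chr2:28916669-28916918 and chr2:28912496-28912745.
Barhl1, upstream start: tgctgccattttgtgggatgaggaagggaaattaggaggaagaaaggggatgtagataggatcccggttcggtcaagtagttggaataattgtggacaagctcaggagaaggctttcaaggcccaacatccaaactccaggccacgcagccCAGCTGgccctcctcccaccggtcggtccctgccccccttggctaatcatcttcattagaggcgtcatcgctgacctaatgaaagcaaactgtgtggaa
Barhl1, downstream start: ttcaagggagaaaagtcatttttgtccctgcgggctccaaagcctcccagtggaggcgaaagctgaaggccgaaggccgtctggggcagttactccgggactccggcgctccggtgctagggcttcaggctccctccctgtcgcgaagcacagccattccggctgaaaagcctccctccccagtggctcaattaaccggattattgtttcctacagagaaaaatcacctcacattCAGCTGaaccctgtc
Each Barhl1 window held 1 E-box, at 99 and 15 bases before its start. All 10 genes had such a window, 13 windows in all, of which 9 held an E-box, against 66.2% of the 32851 promoters in the table. The letters AGGAAG, part of sites bound by ETS factors, were sought on either strand. Among the member windows they were found in the first window of Etv1, 8 bases before the start. They were also in the window of the upstream Barhl1 start, at 230 and 214 bases, and in that of Neurod1, at 223 bases. Of all promoters 29.5% held them. These matches describe the letters only.

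**Figure D3:**
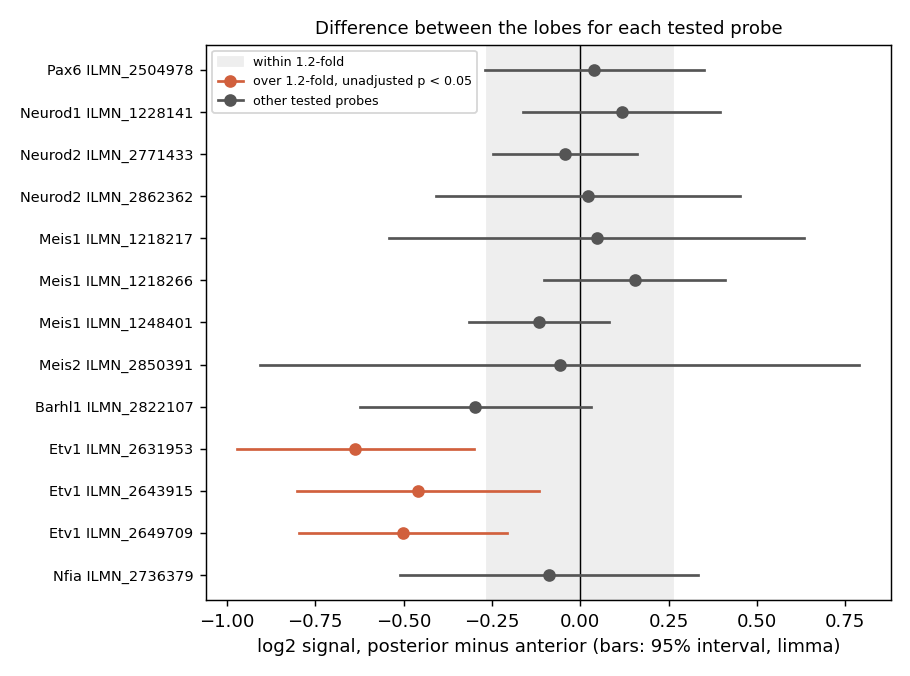
Log2 difference, posterior minus anterior (x axis), of the 13 tested probes (y axis), with bars for the 95% interval of limma and a grey band for differences within 1.2-fold. The bars of the 3 Etv1 probes lie wholly below 0, from -0.97 at the lowest to -0.12 at the highest, and those of the other 10 probes cross 0.

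The profiles most like Etv1 over the 4 arrays, by the Euclidean distance between log2 values with each probe's mean removed, belonged to genes of mixed kinds. For ILMN_2631953 they were Armc3 (distance 0.024), Casc1 (0.062) and Ncam1 (0.069), and 106 probes of other genes lay within a distance of 0.2. Armc3 and Casc1 had posterior means of 6.74 and 6.67, below the lowest detected log2 signals of the posterior arrays, 7.06 and 7.04. Their posterior values were thus background, and the size of their differences was not measured. For ILMN_2649709 the nearest named genes were Atp2a3 and 1110008J03Rik, beside LOC330267, and for ILMN_2643915 they were Rnf220, Clstn1 and Mapt. The posterior means of 1110008J03Rik and Mapt, 7.08 and 7.10, were close to the lowest detected signals. With 4 arrays such likeness is shared by many probes, 356 and 413 within the same distance of these other Etv1 probes.

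Relatives from the same DNA-binding families were counted with 1 probe per gene, the brightest tested one. Of 24 relatives, 23 had a probe and 14 were tested, and 2 passed the criterion, both higher in the posterior lobes, against 7.92% of 15615 genes counted this way (4.46% lower and 3.45% higher). The median log2 difference of the list was 0.022. The ones that passed were Etv5 and Neurog2. Etv5 belongs with Etv1 and Etv4 to the PEA3 group of ETS factors, and its probe ILMN_1235329 went to the other side from Etv1. It had an intensity of 1548.2 and 1597.1 on the anterior and of 1923.0 and 2003.4 on the posterior arrays (log2 difference 0.34, standard error 0.11, adjusted p = 0.41 by limma). Its second probe (ILMN_2938047) had a log2 difference of 0.36 and missed the criterion (unadjusted p of 0.0666 by limma), and Etv4 (ILMN_2778111) had -0.12 (adjusted p = 0.76). Within the PEA3 group, 3 of 3 Etv1 probes were thus lower and 1 of 2 Etv5 probes higher by the criterion of the study, none past the adjusted p.

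Neurog2, a proneural bHLH gene (ILMN_1213024), had an intensity of 377.5 and 325.8 on the anterior and of 431.7 and 484.4 on the posterior arrays (log2 difference 0.40, standard error 0.12, adjusted p = 0.39 by limma). Pbx3, a partner of Meis proteins, had a log2 difference of -0.33 on its brightest probe (ILMN_2642148, adjusted p = 0.56), which missed the criterion. A second Pbx3 probe (ILMN_2642147) passed the criterion, at -0.34, and so did 1 of 3 probes of Meis3 (ILMN_3126848), at -0.33. The relatives of Nfia had log2 differences of 0.16 for Nfib, -0.063 for Nfic and -0.13 for Nfix on their brightest probes, none past the criterion. The count of 2 relatives was 0 without normalization and without either posterior array, 1 with the methods' t-test, and 4 without anterior replicate 1 or with the replicate number as a block.

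None of the genes fixed as partners or antagonists of the bHLH members passed the criterion in the reported analysis. The E proteins Tcf3, Tcf4 and Tcf12, with which tissue bHLH factors form dimers, had log2 differences between -0.037 and 0.038. Among 8 Id, Hes and Hey genes, which hold such factors in check, 0 passed the criterion by limma. The widest differences were 0.31 for Id3 (adjusted p = 0.50) and -0.23 for Id4 (adjusted p = 0.55), and the median was 0.044. With the methods' t-test 0 of the 8 passed as well, while 1 did under 8 of the 15 alternatives. These were cyclic loess, the shift to a common 75th percentile, no filter on dim probes, a detection p under 0.01, eBayes without the trend, the replicate block and leaving out either anterior array.

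Lists of other granule genes by stage gave the following. Of the 11 tested progenitor genes, 9 had a higher and 2 a lower mean in the posterior lobes, with a median log2 difference of 0.16. Of all tested probes 49.4% were lower. The criterion was passed by 2 of the 11, both higher, against 7.92% of 15615 genes counted this way (3.45% higher). All were read on the same 4 arrays. The genes that passed were Zic2, a zinc finger factor of progenitors, and Cxcr4, a chemokine receptor. Zic2 (ILMN_2470518) had an intensity of 798.5 and 439.7 on the anterior and of 1017.1 and 913.7 on the posterior arrays (log2 difference 0.72, adjusted p = 0.39 by limma), while its other probe (ILMN_1252072) had 0.14. Cxcr4 had a log2 difference of 0.39 (adjusted p = 0.49). Neither passed with the methods' t-test, and neither did without posterior replicate 1, while 4 genes of the list passed without anterior replicate 1. A second probe of Sfrp1, a secreted Wnt inhibitor, passed the criterion on the lower side (ILMN_2604282, log2 difference -0.38), while its brightest probe had -0.16.

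Of the 9 tested genes of post-mitotic and migrating granule neurons, 0 passed the criterion by limma or by the methods' t-test, and the median log2 difference was -0.011. The widest were -0.15 for Cntn1 and -0.069 for Astn1, the adhesion protein astrotactin. Of the 8 tested genes of maturing granule neurons, 6 had a lower and 2 a higher mean in the posterior lobes, and the median was -0.050. The 2 higher ones passed, against 7.92% of 15615 genes counted this way (4.46% lower and 3.45% higher). Slc17a7, the gene of vGlut1, was among the lower ones. It had a log2 difference of -0.22 (unadjusted p of 0.0241, adjusted p = 0.42 by limma), which was less than 1.2-fold. The count of 2 was 1 with the methods' t-test, without normalization, and with detection asked on all 4 arrays or at a p-value under 0.01. It was 3 with the replicate number as a block. Calb2, calretinin, had an intensity of 9893.7 and 8736.2 on the anterior and of 11846.3 and 12262.6 on the posterior arrays (ILMN_2827729, log2 difference 0.37, adjusted p = 0.13 by limma). Calretinin also marks unipolar brush cells, a type of interneuron of the IGL, and stands in that list too. Grin2c, an NMDA receptor subunit of mature granule neurons, was dim, with an intensity between 130.7 and 178.4 (log2 difference 0.32, adjusted p = 0.47). Gabrd, a GABA-A receptor subunit, had -0.32 (adjusted p = 0.55) on its brightest probe (ILMN_2698299) without passing, and -0.36 on another (ILMN_2865082, adjusted p = 0.38), which passed the criterion. A second probe of Kcnd2, a potassium channel gene, passed as well (ILMN_2625435, log2 difference -0.27), while its brightest had -0.048.

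**Figure D4:**
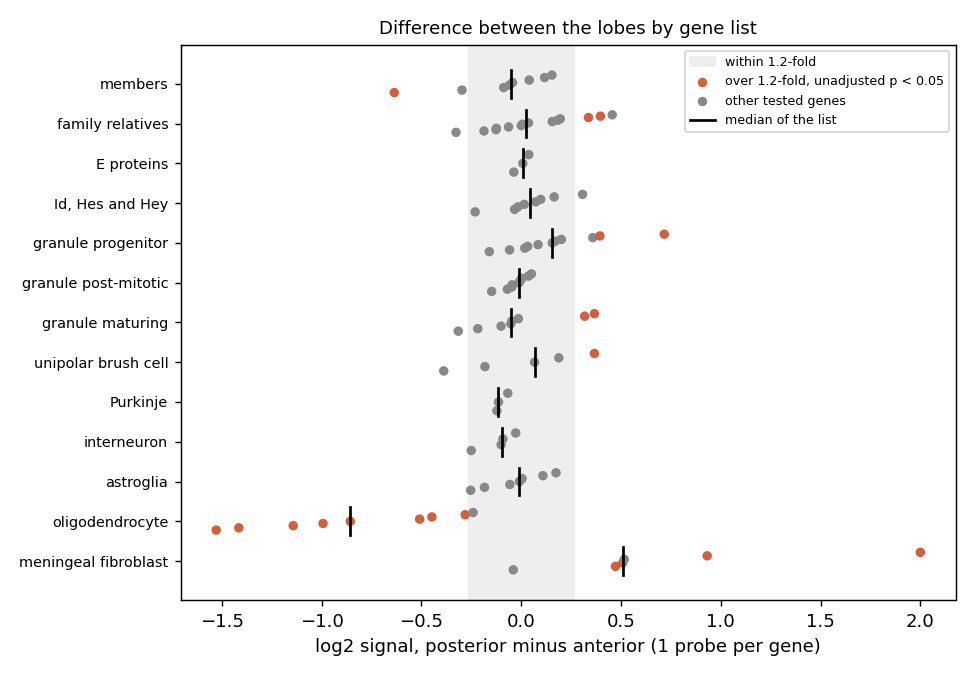
Log2 difference, posterior minus anterior (x axis), of each tested gene in 13 lists (y axis), 1 point per gene for its brightest tested probe, with a black line at the median of the list and a grey band for differences within 1.2-fold. Etv1 is the orange point of the members at -0.64, the granule lists have medians between -0.050 and 0.16, and the oligodendrocyte genes lie below 0.

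Among the lists of other cell types, those of oligodendrocytes and meningeal fibroblasts moved with the lobes. The part of any other cell type in the Etv1 difference was not tested. Olig2, an oligodendrocyte gene, was detected on too few arrays to be tested. All 9 tested oligodendrocyte genes of 10 were lower in the posterior lobes, 8 of them past the criterion, which 7.92% of 15615 genes passed. Their summed signal was 86554 and 84882 on the anterior against 59381 and 55766 on the posterior arrays, a median log2 difference of -0.86. Meningeal fibroblast genes were higher in the posterior lobes for 5 of 6, 4 past the criterion, with a summed signal of 15009 and 16998 against 22743 and 26526. Of the defining Purkinje cell genes, Calb1, Car8 and Pcp4 were detected on too few arrays to be tested. None of the 7 tested astroglial genes, the 3 tested Purkinje genes and the 4 tested interneuron genes passed the criterion by limma. Gad1, Slc32a1, Pvalb and Lhx1, the 4 tested genes of the interneuron list, summed to 47948 and 49088 in the anterior against 43359 and 43987 in the posterior lobes. Pvalb had the largest log2 difference of these, -0.25, and Gad2 and Slc6a5 were detected on too few arrays to be tested. The sum describes these genes and is not a measure of interneuron number. The unipolar brush cell genes summed to 13838 and 14926 against 17098 and 16402, with Calb2 alone of the 5 past the criterion. Of the choroid plexus genes, Clic6 passed the criterion, with an intensity of 503.9 and 699.8 on the anterior and of 268.1 and 372.2 on the posterior arrays (log2 difference -0.89, adjusted p = 0.39 by limma). Ttr, transthyretin, was far brighter in replicate 2 of each lobe, at 9501.9 and 3777.6 against 599.9 and 325.9 in replicate 1, and did not pass.

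The direction of the Etv1 difference held under all 15 alternatives for each probe, with log2 differences between -0.77 and -0.51 for ILMN_2631953. These ends came from leaving out anterior replicate 1 (-0.77) and anterior replicate 2 (-0.51). With 1 anterior array left, the spread in the fit comes from the posterior arrays alone, so no p-value is given. It was the Meis2 probe that moved most when 1 array was left out.

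**Figure D5:**
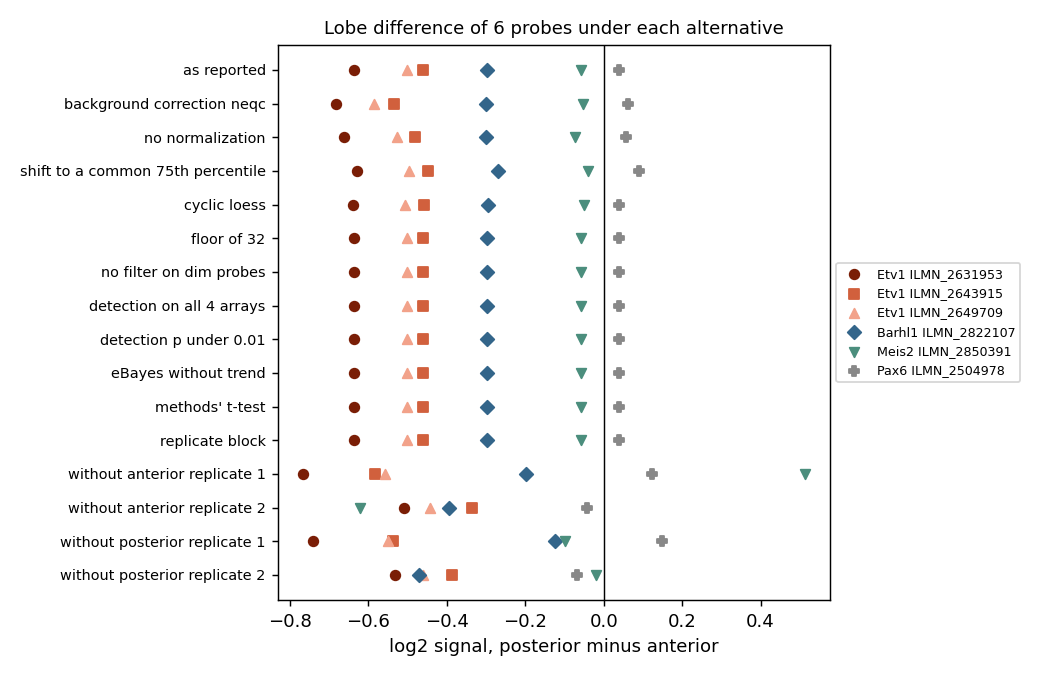
Log2 difference, posterior minus anterior (x axis), of 6 probes under the reported analysis and each of 15 alternatives (y axis), 1 symbol per probe. The Etv1 symbols stay below 0 in every row, and the Meis2 symbol moves from 0.51 without anterior replicate 1 to -0.62 without anterior replicate 2.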

How the data were processed

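Cerebellar RNA of PN7 Swiss mice, 2 samples per lobe, was measured on Illumina MouseWG-6 v2.0 chips. The authors deposited the mean bead intensity, the bead SD and the number of beads per probe, exported from GenomeStudio 1.9.0 with normalization set to none per the file headers. The authors also deposited a detection score, a fraction from 0 to 1, and the detection p-value was taken as 1 minus it. Columns were assigned through the sample numbers of the labels, and another 16 columns were not used.

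Here arrays were quantile normalized, values under 1 were raised to 1 as the methods state, and log2 values were fitted by lobe with limma 3.58.1 in R 4.3.3 (eBayes with an intensity trend). Probes detected (p-value under 0.05) on 2 or more arrays entered, and p-values were adjusted over all of them by Benjamini-Hochberg. The fit was tested on simulated data. Genes of the lists were read from their brightest tested probe.

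All probes of the 10 genes are named. From each related list the genes past the criterion and the 2 largest differences are named, and the 3 probes nearest to each of the 3 member probes with the largest differences. Some genes that this rule names are not reported here. The members and lists were chosen with earlier results of these data known. Alternatives were neqc (offset 16), no normalization, cyclic loess, arrays shifted to 1 common 75th percentile, a floor of 32, other detection filters, no trend, the methods' t-test, a replicate block and leaving out each array. Gene symbols are those of the array, and promoters come from RefSeq (GRCm38.p6). Probe sequences were not used here. The number of arrays limits the precision. Detection ranged from 46.5% to 47.6% of probes per array.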

Additional observations from a re-analysis of the deposited data

How the results depend on the processing

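The 3 member probes past the criterion became 1 under the methods' t-test and between 2 and 7 when an array was left out (7 without anterior replicate 1, 5 without anterior replicate 2, 2 without either posterior array), and stayed between 3 and 4 under the other alternatives. The count past the adjusted p, 0 by limma, was between 0 and 6 when an array was left out, 6 without anterior replicate 1, where 2538 of all tested probes passed, and 1 without anterior replicate 2, and was otherwise 0 except with the replicate block. With the replicate number as a block it was 1, ILMN_2631953 of Etv1 (adjusted p = 0.030), with 588 of all tested probes past it, and the criterion was passed by 4 member probes, the Etv1 probes and Barhl1, and by 13% of all tested probes. The labels number the replicates in each lobe without saying that a number marks a shared animal, and the anterior and posterior gaps of replicate 1 over replicate 2 had r = 0.46 across all tested probes. Signs turned only when an array was left out, over ranges of -0.15 to 0.062 (ILMN_2771433) and -0.24 to 0.28 (ILMN_2862362) for Neurod2, -0.27 to 0.36 for Meis1 (ILMN_1218217), -0.62 to 0.51 for Meis2, -0.36 to 0.19 for Nfia and -0.067 to 0.15 for Pax6. The other 7 tested member probes kept their sign under all 15 alternatives. The cause was not tested. Signal at background limits what can be said of Atoh1 and Nhlh1.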
